A study of Mus musculus with 24 samples.

Results

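The alpha-defensin genes of the mouse were followed across 24 libraries of bulk RNA. Members were all genes whose symbol in the deposited files begins with Defa followed by a digit. This gave 28 of 55401 genes, measured as 29 transcripts. Their estimated counts, the read numbers that kallisto assigns to each transcript, were summed by gene. Alpha-defensins, called cryptdins in mice, are small antimicrobial peptides that Paneth cells at the base of small intestinal crypts store in granules and release into the crypt. The peptide is made as a longer precursor with a signal sequence and an acidic propiece, and in mice the protease matrilysin (Mmp7) cuts it to its active form. The mature peptide is folded by disulfide bonds between its cysteines.

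Male C57BL/6 mice, 11 weeks of age, had been given propyzamide, a herbicide that acts on plant microtubules, or vehicle with no active compound. With each, RNA was sampled unstimulated and 3 h or 24 h after anti-CD3, an antibody against the T cell receptor complex, in 6 groups of 4 libraries. The series concerns a preclinical model of inflammatory bowel disease and its title names T cells. No source used here names the tissue, a sort of cells, a dose or the route of anti-CD3, and nothing says whether each library is a separate animal, so p-values measure the spread between these libraries, which may be technical. The second of the index sequences in the library names is the same in vehicle 3 h and the 2 unstimulated groups and differs from the one in the remaining 3 groups. The labels do not call it a batch, and where the groups compared differ in it, index and group cannot be told apart. This holds for all comparisons below of 24 h with unstimulated libraries, of propyzamide 3 h with unstimulated ones, of vehicle 24 h with 3 h and of the treatments at 3 h. It also holds for the difference in anti-CD3 response between treatments at 3 h. The mean of the treatment difference over stages includes the one at 3 h and so is affected in part.

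Of the 24 libraries, 23 had total counts of 438750 to 2072033, and the deepest, propyzamide 24 h replicate 3, had 9812458. Most counts lay outside named protein-coding genes, which held 17960 to 160739 counts in the 23 libraries and 2938155 in the deepest. That deepest library also stood apart in what it held. It had 17317 counts in a list of 12 enterocyte genes, against 9 to 14 in the other libraries of its group, and 15504 counts in 12 general epithelial genes, against 20 to 83. The shallowest library, propyzamide 3 h replicate 3, had 235 alpha-defensin counts. Alpha-defensin counts exceeded the summed counts of 12 T cell marker genes in 24 of 24 libraries, by 4.84 to 143 times with a median of 42.4. No T cell marker was at 0 in every library, and 1 of the 12 had a count in every library. The family took 0.0536% to 0.482% of all counts. Intervals of 95% (Wilson) around these shares were 0.0471% to 0.0609% for the lowest and 0.471% to 0.492% for the highest, which covers counting error only. In bulk RNA, fewer Paneth cells and less alpha-defensin RNA per Paneth cell cannot be told apart.

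All 28 members lie on chromosome 8 between bases 21025545 and 21735471 of GRCm38, a stretch of 709927 bases, per the GENCODE M21 annotation. They fall into kinds that differ in the number of cysteine codons. The coding part of exon 2, which encodes the mature peptide, is shown for 2 members of each main kind on which results below turn, 5′ to 3′, with cysteine codons in capitals. Defa24 and Defa23 stand for the classical cryptdins, and Defa39 and Defa43 for members with repeated cysteine triplets, a feature of the cryptdin-related sequences.
Defa24 (chr8:21735268-21735374, plus strand): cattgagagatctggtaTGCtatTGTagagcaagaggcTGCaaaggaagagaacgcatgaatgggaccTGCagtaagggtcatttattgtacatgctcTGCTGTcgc
Defa23 (chr8:21055812-21055918, plus strand): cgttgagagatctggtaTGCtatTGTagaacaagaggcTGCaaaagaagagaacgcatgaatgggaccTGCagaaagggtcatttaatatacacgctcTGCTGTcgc
Defa39 (chr8:21702631-21702806, minus strand): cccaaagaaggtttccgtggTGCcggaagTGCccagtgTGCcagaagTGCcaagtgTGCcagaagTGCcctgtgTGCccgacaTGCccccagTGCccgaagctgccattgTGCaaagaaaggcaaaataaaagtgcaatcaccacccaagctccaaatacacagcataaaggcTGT
Defa43 (chr8:21593490-21593665, minus strand): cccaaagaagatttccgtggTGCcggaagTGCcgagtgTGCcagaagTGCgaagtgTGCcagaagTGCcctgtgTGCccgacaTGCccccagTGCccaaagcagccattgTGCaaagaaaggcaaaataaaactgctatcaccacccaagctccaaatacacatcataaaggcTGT
Cysteine codons were counted over the whole coding sequence. Of the 28 members, 20 have 6 cysteine codons, 3 have 7 (Defa25, Defa28 and Defa41) and 5 have 11 (Defa29, Defa38, Defa39, Defa42 and Defa43). In Defa25 and Defa28 the coding part of exon 2 holds only 6 of the 7, while in Defa41 it holds all 7. The 5 members with 11 cysteine codons have 348 coding bases each and all lie on the minus strand, while the other 23 lie on the plus strand. Among these 5 the coding sequences were 95.98% to 100% identical. Defa24 and Defa23 are 95.7% identical over 279 coding bases, and Defa24 and Defa30 are 98.57% identical. Defa21 is farther away, with 78.5% identity to Defa24.

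The kinds also differed in the stretch before the gene start. RefSeq promoters (GRCm38.p6) were matched by symbol for 16 members, and the 250 bases before the start were searched on both strands for TATAAA, the core of a TATA box, and for CTTTGA, a core that TCF/LEF factors of the Wnt pathway bind, which reads TCAAAG on the other strand. The 2 motifs do not overlap in the stretches shown, which are 80 bases that end at TATAAA, with any match in capitals.
Defa23 (chr8:21054933-21055012, plus strand): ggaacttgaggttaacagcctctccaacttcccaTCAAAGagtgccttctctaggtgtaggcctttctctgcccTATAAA
Defa21 (chr8:21025440-21025519, plus strand): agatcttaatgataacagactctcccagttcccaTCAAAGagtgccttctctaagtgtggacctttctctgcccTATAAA
Defa38 (chr8:21096119-21096198, minus strand): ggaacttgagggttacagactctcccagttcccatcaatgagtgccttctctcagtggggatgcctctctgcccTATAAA
Defa43 (chr8:21594534-21594613, minus strand): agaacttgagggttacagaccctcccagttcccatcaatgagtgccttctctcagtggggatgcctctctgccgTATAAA
TATAAA stood in 15 of the 16 member promoters and in 12.4% of all 32851 promoters searched. CTTTGA stood in 13 of 16, against 13.8% of all. It was found in 11 of 11 promoters of members with 6 cysteine codons and in 2 of 2 with 7, and in 0 of 3 with 11 (Defa38, Defa42 and Defa43). In Defa30, Defa36 and Defa37, which have 6 cysteine codons, the match lay outside the 80 bases that end at TATAAA. Promoters of such closely related genes are not independent, a match describes letters and not binding, and its absence says only that the letters are not in this window.

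Members share so much sequence that reads could not always be placed on 1 gene. Of the 28 members, 9 had no stretch of 31 bases, the unit kallisto matches, that is absent from the other members. The largest share of such private stretches was 48.8%, in Defa39. Members that shared at least 80% of their stretches were joined, a rule set after the values were seen, which gave 7 sets of 16 members and left 12 members on their own. The sets were Defa3 with Defa17, Defa2 with Defa20, Defa32 and Defa33, Defa21 with Defa22, Defa23 with Defa31, Defa36 with Defa37, Defa5 with Defa34, and Defa42 with Defa43. Within sets, a member was at times at 0 where its partner was not. Defa43 had 0 counts in propyzamide 3 h replicate 2, vehicle 24 h replicate 3 and propyzamide 24 h replicate 2, where Defa42 had 27, 42 and 108. The family sum is therefore given first, and single members of a set are uncertain.

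**Figure D1:**
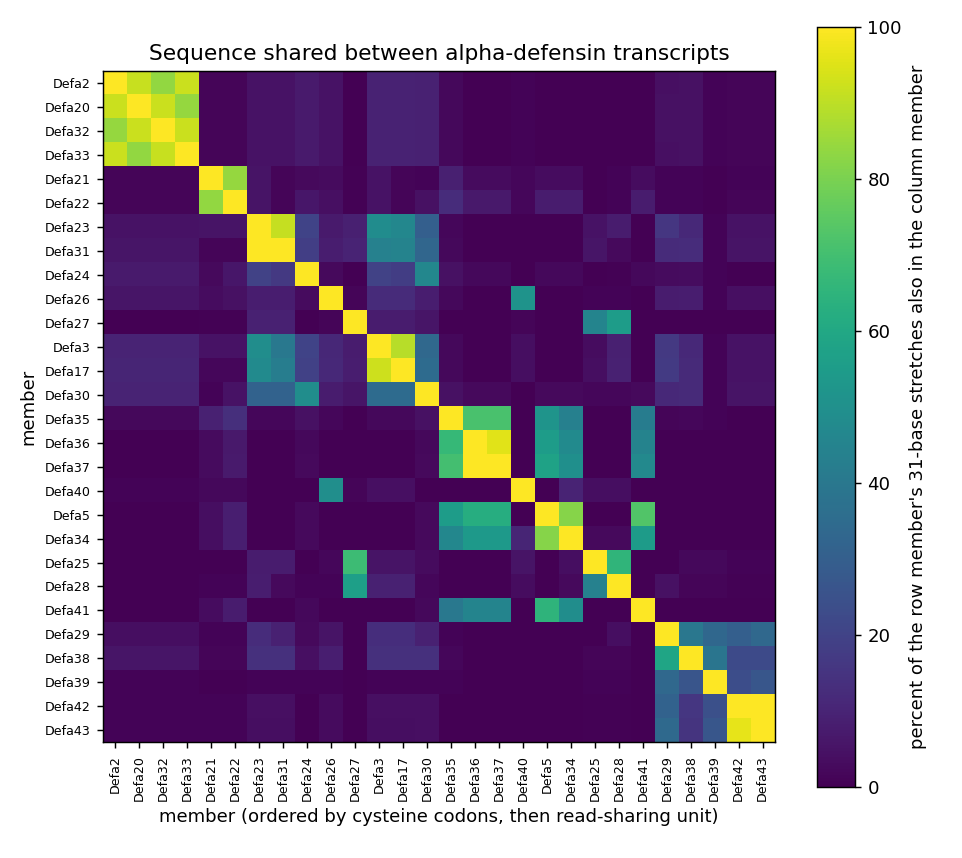
Percent of the stretches of 31 bases of each member (rows) that also occur in each other member (columns), from 0 to 100. The brightest blocks off the diagonal are the 7 sets, such as Defa2, Defa20, Defa32 and Defa33. Other pairs share much too, such as 72.8% of Defa5 with Defa41 and 71.2% of Defa35 with Defa36. The 5 members with 11 cysteine codons share at most 17.2% with any of the other 23.

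Alpha-defensins held 3.63% to 6.24% of named protein-coding counts in vehicle unstimulated libraries and 1.49% to 2.47% at 3 h after anti-CD3. The family's level, in CPM (counts scaled to library size, with TMM normalization), was 3942, 2492, 3665 and 2988 in the 4 vehicle unstimulated libraries, a mean of 3272 ± 657 (SD, n = 4). At 3 h with vehicle it was 1484, 895, 1231 and 1015, a mean of 1156 ± 259 (SD, n = 4). Every 3 h library lay below every unstimulated one. This was a 2.83-fold lower level, a log2 fold change of -1.50 ± 0.40 (SE), and its adjusted p of 0.132 (edgeR's quasi-likelihood test, Benjamini-Hochberg over 3778 genes) did not pass the threshold of 0.05. DESeq2 gave -1.54 with an adjusted p of 0.00679, and edgeR on these 2 groups alone gave -1.51 with 0.0014. Both groups carry the same index sequence.

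With propyzamide the family fell at 3 h. Its level was 3400, 5440, 4020 and 2103 CPM in the unstimulated libraries, a mean of 3741 ± 1386 (SD, n = 4). At 3 h it was 1868, 1051, 554 and 941 CPM, a mean of 1104 ± 553 (SD, n = 4), and no library of one group reached the other. The log2 fold change was -1.76 ± 0.41 (SE), 3.39-fold, with an adjusted p of 0.0322. The call was lost among named protein-coding genes only (-1.57, adjusted p of 0.103). It was also lost without propyzamide unstimulated replicate 3 (0.0992) and without propyzamide 3 h replicate 2 (0.106), 3 (0.0843) or 4 (0.136), while the fold change stayed between -2.14 and -1.60. Without the deepest and the shallowest library it was -1.57 with an adjusted p of 0.00868.

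**Figure D2:**
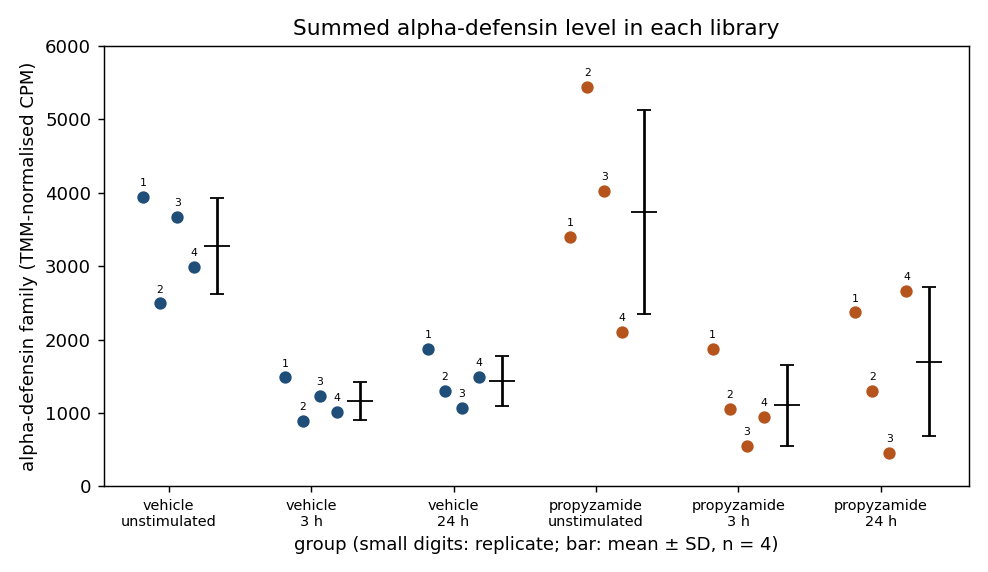
Summed alpha-defensin level (TMM-normalised CPM, from 0) in each of 24 libraries, by treatment and time after anti-CD3, with mean ± SD of 4 libraries beside the points. The 3 h libraries of each treatment lie below its unstimulated libraries, and propyzamide 24 h replicate 3 is the lowest point at 451.

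At 24 h the family's level still lay below the unstimulated level, with more spread. With vehicle it was 1867, 1302, 1073 and 1492 CPM, a mean of 1434 ± 336 (SD, n = 4), and every library lay below the unstimulated ones. The log2 fold change was -1.19 ± 0.40 (SE), 2.28-fold lower, with an adjusted p of 0.268. It passed the threshold when edgeR was run on these 2 groups alone (-1.17, adjusted p of 0.0046) and without the deepest and the shallowest library (-1.18, 0.0201), and not with DESeq2 (-1.08, 0.168). With propyzamide it was 2370, 1298, 451 and 2659 CPM, a mean of 1694 ± 1015 (SD, n = 4), so that 2 libraries lay above the lowest unstimulated library at 2103. The log2 fold change was -1.14 ± 0.40 (SE) with an adjusted p of 0.236, and -0.83 with 0.311 without replicate 3, the deepest. That library was lowest of its group by CPM and by share of named protein-coding counts (0.561%, against 1.62% to 3.51%), but its share of all counts, 0.168%, lay within the 0.14% to 0.272% of the other libraries.

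From 3 h to 24 h the family was 1.24-fold higher with vehicle, a log2 fold change of 0.31 ± 0.40 (SE) with an adjusted p of 0.753. With propyzamide it was 1.53-fold higher, 0.61 ± 0.40 (SE) with an adjusted p of 0.267. The groups overlapped in both, and neither passed the test. Within 2 standard errors, these data allow a log2 change from -0.48 to 1.10 with vehicle and from -0.18 to 1.41 with propyzamide.

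No difference between propyzamide and vehicle in the family's level exceeded the spread between libraries at any stage. The log2 fold change of propyzamide over vehicle was 0.19 ± 0.40 (SE) without stimulation, with an interval of 2 standard errors from -0.60 to 0.98 and an adjusted p of 1. At 3 h it was -0.06 ± 0.40, from -0.86 to 0.73, with an adjusted p of 0.999, and its sign differed between settings. At 24 h it was 0.24 ± 0.40, from -0.55 to 1.03, with an adjusted p of 0.825. Over the mean of the 3 stages it was 0.12 ± 0.23, from -0.33 to 0.58, with an adjusted p of 0.866. The intervals at single stages are wide, so the values do not show that the treatments act alike. The difference in anti-CD3 response between treatments (the interaction) was -0.26 ± 0.56 at 3 h and 0.05 ± 0.56 at 24 h, with adjusted p of 0.999 and 1.

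Of the 28 members, 22 passed the filter on low counts and held 99.5% of the family's counts. The others were Defa25, Defa27, Defa28, Defa34, Defa35 and Defa40, with 2, 24, 3, 166, 41 and 148 counts in all 24 libraries together. Members were called at an adjusted p of 0.05 or less over 3799 genes. At 3 h with vehicle 2 of 22 were called, both lower (Defa23 and Defa39), where 0.290% of all genes tested were called in either direction and 0.105% as lower. At 3 h with propyzamide 3 of 22 were called, all lower (Defa21, Defa24 and Defa29), against 0.711% of all genes in either direction and 0.553% as lower. At an unadjusted p under 0.05 the counts were 14 and 15 of 22, where 6.24% of all genes tested passed with vehicle and 13.4% with propyzamide. The median log2 fold change of the 22 was -1.46 with vehicle, beside -0.04 over all genes tested, and -1.66 with propyzamide, beside -0.13. Both vehicle calls were lost in each of the 8 fits that left out a library, where 0.105% to 0.290% of all genes were called. With propyzamide 0 to 9 members were called in the 8 such fits. There were 9 without 3 h replicate 1, beside 1.13% of all genes. There were 2 without unstimulated replicate 1 or 4, beside 0.605% and 0.316%, and 1 without 3 h replicate 2, beside 0.316%. None was called without unstimulated replicate 2 or 3 h replicate 3 or 4, beside 0.605%, 0.132% and 0.184%. None was called without unstimulated replicate 3 either. DESeq2 called 6 members with vehicle (5 lower, and Defa37, the partner of Defa36 in sequence, higher) and 10 with propyzamide, where it called 0.896% and 2.05% of all genes. EdgeR on the 2 groups alone called 9 members with vehicle and 0 with propyzamide, beside 0.869% and 0.211% of all genes.

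At 24 h against unstimulated no member was called with either treatment, where 0.421% of all genes were called with vehicle and 0.0790% with propyzamide. At an unadjusted p under 0.05 there were 9 and 11 of 22, where 7.16% of all genes passed with vehicle and 14.4% with propyzamide. DESeq2 and limma-trend called none. With vehicle, edgeR called 7 members on the 2 groups alone, 3 without the deepest and the shallowest library and 2 with no filter, all lower, beside 1.68%, 1.13% and 0.133% of all genes. With propyzamide no setting called a member at 24 h. The median over the 22 was -1.20 with vehicle, beside -0.03 over all genes, and -1.21 with propyzamide, beside 0.03. From 3 h to 24 h no member was called with vehicle, where 0% of all genes were. With propyzamide none was called either, where 15.2% of all genes were. In that last comparison DESeq2 and limma-trend each called 2 (Defa23 and Defa29), all higher, where they called 27.5% and 13.7% of all genes. EdgeR called Defa29 with RLE or without the deepest library and Defa20 without propyzamide 3 h replicate 1. In the same order, these settings called 23.5%, 6.42% and 9.56% of all genes. Propyzamide against vehicle gave no called member at any stage, over the mean of stages or in the interactions, where 0% of all genes were called. At an unadjusted p under 0.05 these held 0 to 2 of 22 members each, where 2.34% to 10.2% of all genes passed. DESeq2 called 1 member (Defa37) without stimulation, beside 0.0263% of all genes, and edgeR with no filter called up to 2 (Defa31 and Defa37).

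Among the classical cryptdins with 6 cysteine codons, Defa24 (chr8:21734494-21735471) had the highest level per length, a mean of 1167 TPM (counts scaled by transcript length and library size) over 24 libraries. Its level was 1138, 758, 1021 and 809 CPM in vehicle unstimulated libraries and 443, 261, 330 and 295 at 3 h. With propyzamide it was 926, 1562, 1190 and 556 without stimulation and 533, 311, 130 and 287 at 3 h. In both treatments the 3 h libraries lay below all unstimulated ones. Defa24 fell with propyzamide, with a log2 fold change of -1.74 ± 0.40 (SE) and an adjusted p of 0.0325. With vehicle the value was -1.49 ± 0.40 with an adjusted p of 0.129.

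Defa23 (chr8:21055047-21056016) was next by TPM, with a mean of 419, and has no private stretch of 31 bases. Its level was 416, 253, 403 and 268 CPM in vehicle unstimulated libraries and 81.3, 85.2, 55.1 and 95 at 3 h, with a gap between the groups. It fell with vehicle by a log2 fold change of -2.08 ± 0.46 (SE), with an adjusted p of 0.0373. Its partner Defa31 took 37, 10, 28 and 0 counts in those 3 h libraries, and 0, 0, 0 and 53 without stimulation. The summed level of Defa23 and Defa31 was 3.23-fold lower at 3 h, with no overlap between groups. With propyzamide, Defa23 was 287, 540, 457 and 237 CPM without stimulation and 198, 101, 23 and 109 at 3 h, which gave -1.80 ± 0.45 with an adjusted p of 0.0525.

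Defa30, Defa17 and Defa36 followed by TPM, with means of 409, 378 and 231. None was called in the reported fit, by edgeR over all groups and libraries with the filter and TMM. For vehicle at 3 h, edgeR on the 2 groups alone called all 3, lower, and DESeq2 called Defa30. EdgeR with no filter called all 3 there, and without the deepest and the shallowest library it called Defa30 and Defa17. With propyzamide DESeq2 called all 3, lower, and edgeR with RLE called Defa30 and Defa36. EdgeR with no filter called Defa17 and Defa36 there, and without propyzamide 3 h replicate 1 Defa30 was among the 9 members called. Defa30, close to Defa24 in sequence, was 338, 243, 359 and 278 CPM in vehicle unstimulated libraries, 201, 68.7, 91.8 and 100 at 3 h and 169, 136, 92.6 and 127 at 24 h. These 2 later groups lay below the first throughout. Defa17 was 365, 232, 299 and 211 CPM without stimulation, then 132, 83, 119 and 79.6 at 3 h with vehicle. Defa36 was 272, 150, 207 and 201 CPM, then 102, 61.8, 69 and 22.8. Their log2 fold changes at 3 h with vehicle were -1.41 ± 0.40, -1.43 ± 0.57 and -1.71 ± 0.61 (SE), in the order Defa30, Defa17, Defa36, with adjusted p of 0.157 to 0.614. Read sharing shows here too, since Defa17 was at 0 in propyzamide 3 h replicate 3, where Defa3 had 27 counts, and Defa36 was at 0 in propyzamide 3 h replicate 2, where Defa37 had 33.

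Defa21 (chr8:21025545-21026516), one of the members farthest from Defa24 in sequence, fell at 3 h with propyzamide. Its level was 131, 134, 145 and 92 CPM without stimulation and 50.6, 16.9, 10.4 and 35.4 at 3 h, with no overlap, a log2 fold change of -2.10 ± 0.52 (SE) and an adjusted p of 0.0476. With vehicle it was 105, 72.1, 114 and 95.4 CPM, then 41.1, 31.2, 41.4 and 11.7 at 3 h, which gave -1.63 ± 0.51 with an adjusted p of 0.277. At 24 h with vehicle replicate 4 reached 90.5 CPM, inside the unstimulated range. Defa21 and Defa22 together were 2.79-fold lower at 3 h with vehicle and 3.82-fold lower with propyzamide.

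Among the members with 11 cysteine codons, Defa39 (chr8:21702519-21703645) can be told from its relatives best. It was 221, 120, 159 and 121 CPM in vehicle unstimulated libraries, 47.8, 25.8, 51.1 and 31.2 at 3 h and 73.3, 48.8, 50.4 and 68.4 at 24 h. Both later groups lay below the unstimulated one. At 3 h it fell 3.99-fold, with an SE of 0.45 on the log2 scale, with an adjusted p of 0.0374. With propyzamide the value was -1.62 ± 0.44 with an adjusted p of 0.0701, and the highest 3 h library, at 110 CPM, lay above the lowest unstimulated one, at 82.2.

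Defa29 (chr8:21325887-21327020) had the largest called difference. It was 67.8, 85.8, 66 and 14.5 CPM with propyzamide without stimulation and 11.3, 14.8, 6.94 and 6.4 at 3 h. Unstimulated replicate 4 was low, so that the groups overlapped. The log2 fold change was -2.60 ± 0.54 (SE), 6.06-fold, with an adjusted p of 0.0227. With vehicle it was 59.4, 26.8, 47.9 and 43.2 CPM, then 22.5, 14.6, 24.9 and 24.4, a log2 fold change of -1.05 ± 0.50 with an adjusted p of 0.774. The 3 h libraries with propyzamide held only 14, 10, 3 and 8 counts of it. Defa43, the highest of its kind by TPM with a mean of 186, was 279, 140, 251 and 218 CPM with vehicle without stimulation and 35.3, 41.9, 77 and 88.6 at 3 h, a log2 fold change of -1.87 ± 0.93 with an adjusted p of 0.835. Summed with Defa42, which holds 96.2% of its stretches of 31 bases, it was 3.11-fold lower at 3 h with vehicle and 4.11-fold lower with propyzamide, with no overlap in either.

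**Figure D3:**
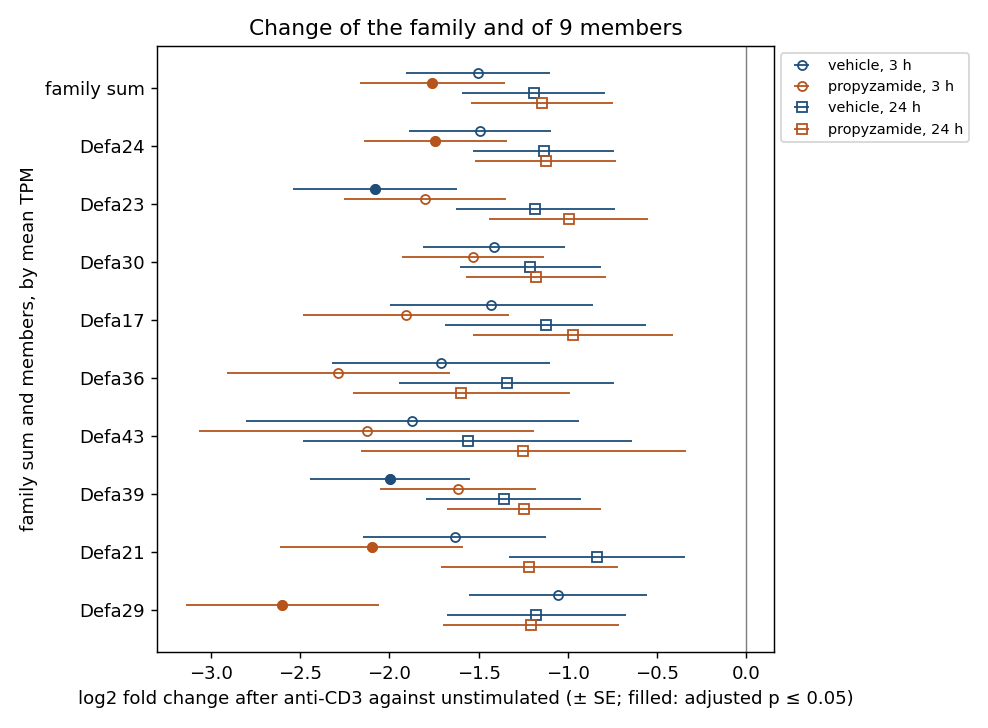
Log2 fold change (± SE) of the family sum and of 9 members after anti-CD3 against unstimulated, at 3 h (circles) and 24 h (squares), with vehicle (blue) and propyzamide (orange). Filled symbols have an adjusted p of 0.05 or less: the family sum, Defa24, Defa21 and Defa29 with propyzamide at 3 h and Defa23 and Defa39 with vehicle at 3 h. All values plotted are below 0.

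Summed over sets that share reads, the members had the same direction after anti-CD3. Of the 7 sets and 12 single members, 12 units held at least 1% of the family's counts on average. At 3 h with vehicle all 12 were lower, by 2.05-fold to 3.99-fold, and in all 12 every 3 h library lay below every unstimulated one. That pattern was seen in 13 of the 22 single members and in 3.74% of all genes tested. At 24 h with vehicle all 12 were lower, by 1.83-fold to 2.64-fold, 10 without overlap, as were 10 of 22 single members and 4.50% of all genes. With propyzamide at 3 h all 12 were lower, by 2.91-fold to 5.93-fold, 8 without overlap, as were 6 of 22 single members and 5.16% of all genes. At 24 h with propyzamide all 12 were lower by 1.90-fold to 2.66-fold, and none without overlap, beside 2 of 22 single members and 2.05% of all genes. The units share libraries and partly reads, so they are not independent.

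The share of each member in the family's counts was also followed. Defa24 took 25.5% to 32.3% of the family's counts over the 24 libraries, with a mean of 28.8%. Defa3 with Defa17 took 7.93% to 14.9%, Defa23 with Defa31 7.42% to 13.1%, and Defa30 7.21% to 13.6%. The 5 members with 11 cysteine codons together took 11.1% to 18.5%, with a mean of 15.6% ± 1.93 (SD, n = 24). By group their share was 16.7% ± 0.924 in vehicle unstimulated, 14.6% ± 3.13 at 3 h and 14.7% ± 2.46 at 24 h (SD, n = 4). With propyzamide it was 16.2% ± 1.06, 14.8% ± 1.63 and 16.7% ± 0.968 in the same order. These ranges overlap in all groups. The share of Defa41, a member with 7 cysteine codons, was 0.576% on average and reached 3.57% in the shallowest library, on 8 counts. Defa41 had no count in 4 of the 24 libraries.

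**Figure D4:**
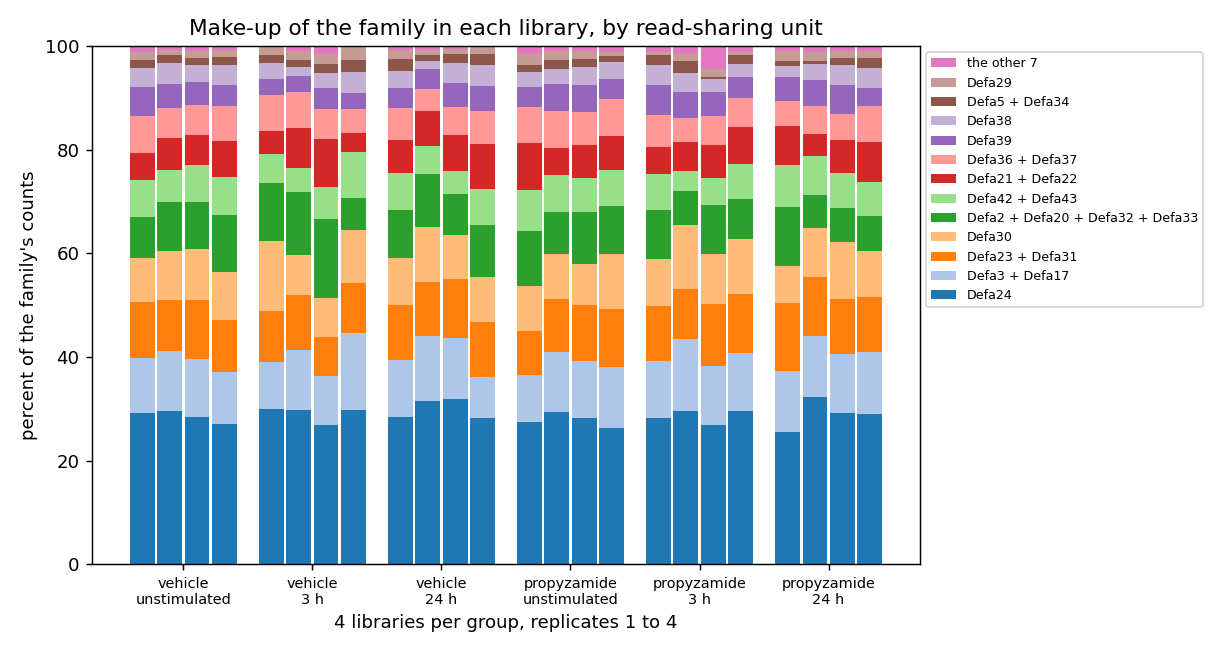
Percent of the family's counts in each of the 12 larger read-sharing units and the other 7 together, for 24 libraries in 6 groups. Defa24, at the bottom, fills 25.5% to 32.3% of every bar.

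Other products of Paneth cells were measured from a list of 12 genes, of which 8 passed the filter. At 3 h with vehicle 1 of 8 was called, lower, where 0.290% of all genes tested were called in either direction and 0.105% as lower. With propyzamide 3 of 8 were called, all lower, against 0.711% of all genes in either direction and 0.553% as lower. The median log2 fold change was -1.83 with vehicle, beside -0.04 over all genes tested, and -1.71 with propyzamide, beside -0.13. Lyz1, Paneth cell lysozyme, was 518 ± 118 CPM (SD, n = 4) with vehicle unstimulated and 163 ± 27.2 at 3 h, a log2 fold change of -1.67 ± 0.40 (SE) with an adjusted p of 0.0653. It fell with propyzamide (-2.12 ± 0.41, adjusted p of 0.0159). Itln1, an intelectin that binds microbial sugars, fell with vehicle (-1.99 ± 0.42, 0.0297) and with propyzamide (-1.67 ± 0.41, 0.0478). Mptx2, a mucosal pentraxin, fell with propyzamide (-4.01 ± 0.87, 0.029) and rose from 3 h to 24 h (4.01 ± 0.87, 0.0078), with group means of 17.1 CPM unstimulated, 0.797 at 3 h and 18.6 at 24 h. Its counts in the 4 libraries at 3 h were 3, 0, 0 and 1.

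The remaining products on the list did not pass the test at 3 h. Mmp7, which activates the alpha-defensins, was 14.9 ± 4.27 CPM with vehicle unstimulated and 3.49 ± 3.9 at 3 h (SD, n = 4), a log2 fold change of -2.01 ± 0.61 (SE) with an adjusted p of 0.246. Pnliprp2, a lipase, had -2.35 ± 0.65 with 0.145, and Ang4, an antimicrobial angiogenin, had -1.30 ± 0.52 with 0.619. The lectins Reg3g and Reg3b, which enterocytes make as well, had positive values with vehicle, 1.68 ± 0.66 with 0.613 and 1.49 ± 0.78 with 0.864. At 24 h against unstimulated 0 of 8 were called with either treatment, where 0.421% of all genes were called with vehicle and 0.0790% with propyzamide. Of 15 genes for Paneth cell formation and secretion 3 passed the filter (Xbp1, Tcf7l2 and Atg16l1). None was called in any comparison with unstimulated libraries, where 0.0790% to 0.711% of all genes were.

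The ratio of alpha-defensin counts to counts of the 12 other Paneth products did not separate the groups. It was 3.33 to 4.51 in vehicle unstimulated libraries, 2.97 to 5.30 at 3 h and 3.34 to 4.11 at 24 h. With propyzamide it was 3.34 to 4.17, then 2.92 to 5.06, then 2.29 to 4.65, the lowest being the deepest library. The groups overlapped in every comparison. Lyz1 and Itln1 made up most of the list, with means of 518 and 225 of 845 CPM in vehicle unstimulated libraries. Reg3g and Reg3b had means of 9.98 and 9.05 CPM there. At 3 h with vehicle they had 32.3 and 25.4, where the list summed to 304. Differences of mean log2 ratio were -0.06 at 3 h and 0.01 at 24 h with vehicle, and 0.08 and -0.05 with propyzamide, beside -1.50, -1.20, -1.81 and -1.35 for the level in CPM.

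Against general epithelial genes the ratio did separate the vehicle groups. Alpha-defensin counts per count of 12 epithelial genes were 14.8 to 20.5 in vehicle unstimulated libraries, 6.20 to 13.3 at 3 h and 49.1 to 106 at 24 h, with no overlap between any 2 of these groups. The 24 h values rest on 8 to 56 epithelial counts per library. With propyzamide the ratio was 7.33 to 38.2 without stimulation, 6.97 to 39.2 at 3 h, and 31.1, 51.1 and 72.9 at 24 h in 3 libraries, with 1.06 in the deepest. Differences of mean log2 ratio with vehicle were -0.95 at 3 h and 2.21 at 24 h, the latter opposite in sign to the level in CPM.

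**Figure D5:**
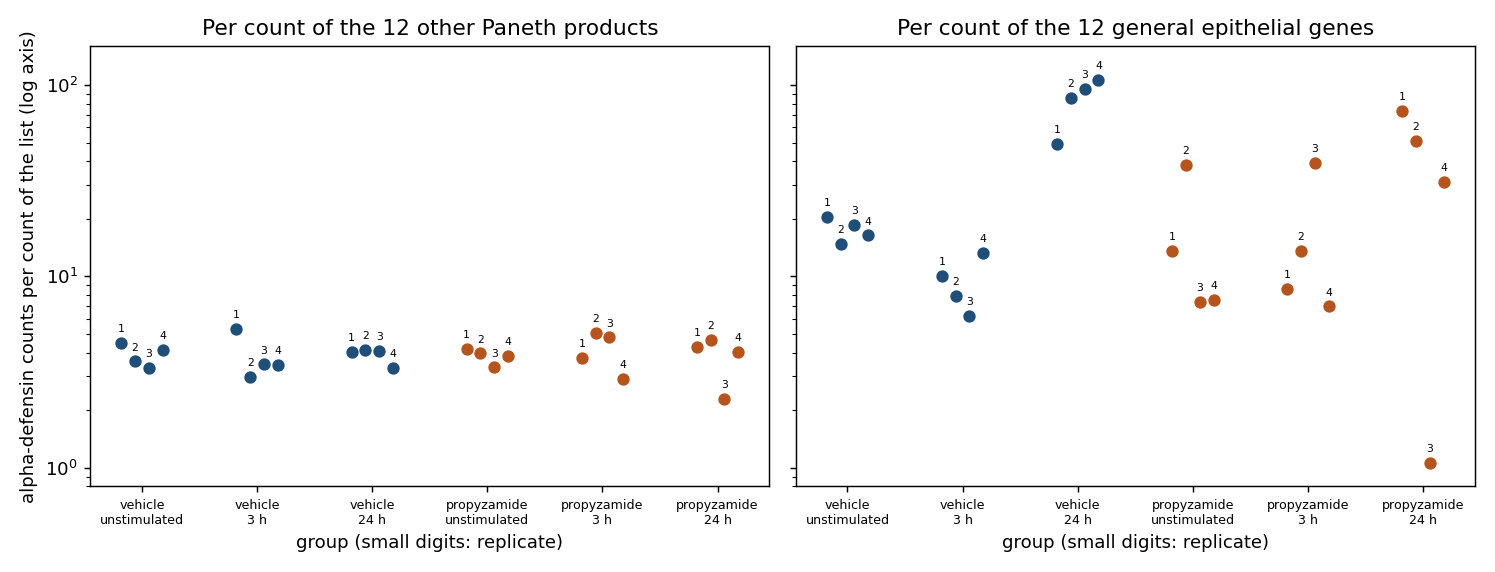
Alpha-defensin counts per count of 12 other Paneth products (left) and of 12 general epithelial genes (right), on a log axis, in each library. The left ratio stays between 2.29 and 5.30 in 24 libraries, and the right one is 49.1 to 106 in vehicle 24 h libraries and 1.06 in propyzamide 24 h replicate 3.

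Marker lists of other cell types moved over the same comparisons, and their part in the result was not tested. The 12 enterocyte genes summed to 101 to 155 CPM in vehicle unstimulated libraries, 39.3 to 176 at 3 h and 10.3 to 18.3 at 24 h. Of the 9 that passed the filter, 1 was higher at 3 h and 0 at 24 h, with none called. The 12 general epithelial genes summed to 173 to 194, 74.4 to 199 and 11.4 to 38.2 CPM. At 24 h 1 of 8 was called (Elf3, an epithelial transcription factor, -3.46 ± 0.77, adjusted p of 0.0417), where 0.421% of all genes were. The 6 plasma cell genes summed to 570 to 969 CPM, then 181 to 436 and 177 to 234. Of the 4 plasma cell genes tested, 1 was higher at 24 h and 1 was called, where 0.421% of all genes were. The called gene was Jchain, the joining chain of secreted antibodies, which fell (-2.57 ± 0.58, adjusted p of 0.0417). B cell genes summed to 111 to 300 CPM, 92.8 to 119 and 199 to 433, and T cell genes to 23.1 to 44.4, 20 to 41.9 and 48.5 to 73.7. Granulocyte genes ran from 10.7 to 35.4 CPM, then 18.4 to 104 and 8.46 to 39.9. Of the 4 granulocyte genes tested, 4 were higher at 3 h and 2 at 24 h. At each time 1 was called, where 0.290% and 0.421% of all genes were. The called gene was S100a9, a neutrophil calcium-binding protein with 0 counts in all 8 unstimulated libraries. It rose at 3 h (adjusted p of 0.00442) and at 24 h (0.0204). Of 2 crypt stem and transit cell genes tested, 1 was higher at 24 h and 1 was called, where 0.421% of all genes were. The called gene was Olfm4, a crypt stem cell gene, which fell (-3.09 ± 0.64, adjusted p of 0.0319). Of 7 goblet cell and 5 macrophage genes tested none was called at 3 h or 24 h with vehicle, where 0.290% and 0.421% of all genes were. No gene of these lists was at 0 in all libraries.

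The same lists were summed with propyzamide. Enterocyte genes summed to 55.8 to 737 CPM without stimulation, 22.8 to 83.5 at 3 h and 12.6 to 541 at 24 h, the last value in the deepest library. General epithelial genes ran from 139 to 576, 12.3 to 219 and 25.3 to 484 CPM. Plasma cell genes ran from 688 to 1241, 18.5 to 817 and 243 to 879 CPM. T cell genes ran from 26.4 to 43.4, 4.69 to 36.7 and 58.2 to 129 CPM. B cell genes summed to 118 to 272, 12.3 to 145 and 308 to 582 CPM, and granulocyte genes to 12.7 to 16, 4.11 to 81.3 and 11 to 42.6. From 3 h to 24 h, 5 of 7 B cell, 2 of 4 T cell and 1 of 9 enterocyte genes were called higher. In that comparison 2 of 7 goblet cell genes were called lower, and 15.2% of all genes were called in either direction. Of 4 granulocyte genes tested at 3 h, 4 were higher and 1 was called, where 0.711% of all genes were. The called gene was again S100a9, which rose (adjusted p of 0.0159). At 24 h against unstimulated, 1 of 7 goblet cell genes was higher and 1 was called, where 0.0790% of all genes were. The called gene was Zg16, a goblet cell lectin, which fell (-4.37 ± 0.84, adjusted p of 0.0302).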

How the data were processed

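SMART-seq2 libraries, per the labels' protocols, were quantified with kallisto on GRCm38, per the submitters' processing notes. Neither its version nor the transcript release is stated in the sources used here. For 142604 transcripts the deposited files hold expected counts, which kallisto estimates and which keep the depth, per the file headers. They also hold TPM computed by the authors, per the file headers. A column of the class other that the authors deposited is the effective transcript length and was not used. The 29 member transcripts have the same identifiers and lengths in GENCODE M21, from which coordinates and sequences come.

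Expected counts were summed to 55401 genes, rounded, and fitted with edgeR 4.0.16 in R 4.3.3, with 1 coefficient per group over 24 libraries, filterByExpr, TMM and quasi-likelihood F tests. The family was fitted as 1 summed row among 3778 genes, and members apart among 3799. A call is an adjusted p (Benjamini-Hochberg) of 0.05 or less. Replicates carry no numbers in the labels, got their numbers from accession order, and were not paired. Other settings were RLE, no filter, DESeq2 1.42.0, limma-trend (limma 3.58.1) on log2(TPM + 1) with a pseudocount of 1, fewer groups or genes, and leaving out libraries in 24 fits. Fits were tested on simulated data. Members, lists of genes and the naming rule were chosen with earlier results of these data known. Members named with values were those called in any comparison or among the 6 highest by mean TPM; other genes came from the lists, each Paneth product that passed the filter and up to 3 genes of another list with the smallest p. None of 13 names of alpha-defensin-like gene models that were looked for occurs in the files; 6 of them are older names of members.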

Additional observations from a re-analysis of the deposited data

Results flagged for a closer look

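The ratio of alpha-defensin counts to counts of the other Paneth products in vehicle 24 h replicate 4 was 3.34, while the other 3 libraries of that group lay between 4.01 and 4.11. The gap was 0.872 of the group's range, above Dixon's 95% critical value for 4 samples. This was the only one of 78 groups of values tested that stood out, and chance alone flags about 1 in 20.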

How the results depend on the processing

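Log2 fold changes of the family sum at 3 h with vehicle passed the threshold with no filter (-1.74), only the groups compared (-1.51), DESeq2 (-1.54), limma-trend (-1.82) and without the deepest and the shallowest library (-1.52), the last setting being chosen after seeing the data. Those at 24 h with vehicle passed with no filter (-1.42), only the groups compared (-1.17) and without those 2 libraries (-1.18). At 3 h with propyzamide the call was lost among named protein-coding genes only (-1.57), and leaving out 1 library gave -2.14 to -1.60, with 4 of 8 fits past the threshold. Propyzamide against vehicle at 3 h changed sign with no filter (0.0498), limma-trend (0.15) and without those 2 libraries (0.18), and leaving out 1 library gave -0.44 to 0.21. Leaving out 1 library also changed the sign at 24 h (-0.0654 to 0.577), of the mean of stages (-0.0038 to 0.25) and of the 24 h interaction (-0.26 to 0.35). The 3 h interaction was 0.11 with limma-trend. None of these treatment differences passed the threshold, and the causes were not tested.

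Members called at 3 h with vehicle numbered 12 with no filter (11 lower) and 9 with only the groups compared. There were 6 with DESeq2 (5 lower), 4 with limma-trend, 6 without the 2 libraries and 0 to 0 when 1 library was left out. Over all genes the first 5 settings called 0.118%, 0.869%, 0.896%, 0.184% and 0.816%, beside 0.290% for the reported fit. The fits without 1 library called 0.105% to 0.290% of all genes. With propyzamide they numbered 9 with RLE, 11 with no filter (10 lower) and 1 among named protein-coding genes. There were 0 with only the groups compared, 10 with DESeq2 and 0 to 9 when 1 library was left out. Over all genes the first 5 settings called 1.40%, 0.131%, 0.649%, 0.211% and 2.05%, beside 0.711%. The fit with 9 members called, without 3 h replicate 1, called 1.13% of all genes. At 24 h with vehicle they numbered 2 with no filter, 7 with only the groups compared and 3 without the 2 libraries, beside 0.133%, 1.68% and 1.13% of all genes. From 3 h to 24 h there was 1 with vehicle and no filter, beside 0.0704% of all genes. With propyzamide there were 1 with RLE, 2 with DESeq2, 2 with limma-trend and 0 to 1 when 1 library was left out. Of all genes, RLE, DESeq2 and limma-trend called 23.5%, 27.5% and 13.7%, and the fits without 1 library 4.79% to 23%. For propyzamide against vehicle there were 2 unstimulated and 2 over the mean of stages with no filter, 1 unstimulated with DESeq2 and 1 in the 3 h interaction with no filter, beside 0.0394%, 0.087%, 0.0263% and 0.0435% of all genes.

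As a ratio to the other Paneth products, the difference of mean log2 was -0.0597 (3 h) and 0.0052 (24 h) with vehicle and 0.0784 (3 h), -0.0539 (24 h) and -0.13 (24 h against 3 h) with propyzamide. As a ratio to epithelial genes it was -0.95, 2.21 and 3.17 with vehicle at 3 h, 24 h and 24 h against 3 h, and 0.0377 and 0.52 with propyzamide at 3 h and 24 h. As a share of named protein-coding counts, 24 h against 3 h with propyzamide was -0.0067. Depth limits members below about the level of Defa29, which had 3 counts in the shallowest library. No paired analysis was possible because the labels give the replicates no numbers.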
